A study of Mus musculus with 2 samples.

Results

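Luminal progenitor and alveolar cells are the secretory lineage of the inner epithelial layer of the mammary gland. Here they were found by their UMIs (unique molecules counted per gene and cell) among cells sorted as CD24highCD29+ from mammary glands of C57BL/6 mice, a strain all samples share. A cell was taken as a member if it had at least 8 UMIs of the luminal keratins Krt8 and Krt18 together, and more of these than of the basal keratins Krt5 and Krt14. It also needed at least 3 UMIs of Aldh1a3, Kit, Elf5 and Csn3 together, and more of these than of the hormone-sensing genes Prlr, Esr1, Pgr and Cited1. By this rule 22 of 7662 cells of the library labelled Fgd5-ko and 99 of 10015 cells of the library labelled WT were members, so 121 of 17677 cells in all. Cells had at least 1000 UMIs, at least 500 detected genes and at most 15% mitochondrially encoded UMIs.

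The 2 libraries carry the genotype labels Fgd5-ko and WT, 1 library each, and the design text sets basal epithelium depleted of Fgd5 against basal epithelium of WT mice. Fgd5 encodes an exchange factor for the small GTPase CDC42. The title of the first library also holds the word cko, and both titles hold P4, which the labels do not explain. The sources used here do not give the promoter that drove a deletion, the part of the gene removed or whether animals were pooled. Each genotype has 1 library, so no test was made, the spread between animals is not known and each interval below covers counting error only. Members were 0.287% of passing cells in the library labelled Fgd5-ko (Clopper-Pearson 95% interval 0.180 to 0.434) and 0.989% in the WT library (0.804 to 1.20). The sort can set these shares, since it was aimed at basal cells.

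Luminal progenitors are the alveolar-lineage precursors of the gland. The receptor tyrosine kinase KIT marks them, and the transcription factor ELF5 drives them towards milk-secreting alveolar cells when prolactin signals through JAK2 and STAT5. Alveolar cells then make caseins, whey proteins and iron-binding defence proteins, while the contractile basal cells around them squeeze the milk out.

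The values that chose the cells are given first, as a description. Krt8 and Krt18 exactly at the limit of 8 UMIs occurred in 0 and 3 members of the libraries labelled Fgd5-ko and WT. A sum of Aldh1a3, Kit, Elf5 and Csn3 exactly at 3 occurred in 2 and 5 members. Just outside, with 2 UMIs of that sum, lay 2 cells of the library labelled Fgd5-ko without a UMI of Wfdc18 and 6 WT cells that all had it, with a median of 27 UMIs. Wfdc18 encodes a secreted protein of the whey acidic protein family and was not used by the rule. Likewise the 2 members of the library labelled Fgd5-ko at the limit of 3 had no Wfdc18 UMI, and the 5 WT members at that limit all had it.

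The members are also unlike in depth. In the library labelled Fgd5-ko they had 7837 to 73638 UMIs with a median of 21181, against 1627 to 31911 with a median of 5824 in the WT library. Their UMIs summed to 597200 and 814056. The authors' table of cells held 17 of the 22 and 84 of the 99. All 5 of the missing members in the library labelled Fgd5-ko, and 13 of the 15 in the WT library, had more UMIs than any passing cell listed there. The caller Scrublet called 1 of 7662 cells of the library labelled Fgd5-ko, which is no working call, so its doublets were not removed. It called 216 of 10015 WT cells, of which 4 were members. Of passing barcodes 29 occurred in both libraries, and 1 of them belonged to a member, in the library labelled Fgd5-ko.

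The label fitted most but not all members. In the library labelled Fgd5-ko, 4 of 22 members had no UMI of Elf5, Wfdc18, Cd14 or Plet1, while none of the 99 WT members lacked all of these. These 4 cells passed with 9 to 14 Krt8 UMIs and mainly on Csn3, which needed 1 Kit UMI beside it in 1 cell. They had 0 to 2 Krt18 UMIs and 71 to 190 UMIs of Acta2, the smooth muscle actin of basal cells. At least 5 UMIs of Krt5, Krt14 and Acta2 together were found in 9 of 22 members of the library labelled Fgd5-ko and in 10 of 99 WT members. The remaining 13 and 89 are called members without basal UMIs below, and values for them are given beside the main ratios between the libraries.

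Markers of other cell types were counted in each library. The 10 basal markers summed to 2932 CPM (UMIs scaled to 1000000 UMIs of the class) and 1612 CPM in the libraries labelled Fgd5-ko and WT, all 10 being found in both. Without basal UMIs the sums were 216 and 195 CPM, against 17099.8 and 24815 CPM in basal cells. The 10 hormone-sensing markers gave 46 UMIs (77.0 CPM) in 17 of 22 members of the library labelled Fgd5-ko and 141 UMIs (173 CPM) in 46 of 99 WT members, against 36.8 and 94.1 CPM in basal cells. Prlr, the prolactin receptor gene that luminal progenitors share, supplied 27 and 51 of these UMIs. The 6 Schwann markers gave 60 UMIs (100.5 CPM) and 120 UMIs (147 CPM), of which 53 and 96 were of Sox10, and S100b was at 0 in both libraries. The 8 fibroblast markers gave 43 UMIs in 10 members of the library labelled Fgd5-ko and 434 UMIs in 14 WT members. Of the 8 endothelial markers Cdh5, Kdr, Cldn5 and Emcn were at 0 in the library labelled Fgd5-ko and Kdr and Esam in the WT library, with 9 and 13 UMIs in all. No member of either library had a UMI of Ptprc, the common leukocyte antigen, and the B cell and erythroid lists were at 0.

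Fgd5 itself gave 2 UMIs in members of the library labelled Fgd5-ko, both in cells with basal UMIs, and 0 in WT members. In basal cells it stood at 4.68 CPM in the library labelled Fgd5-ko and 2.32 CPM in the WT library, a log2 ratio of 1.01, and after thinning each cell to 1000 UMIs 9.79% and 10.5% of endothelial cells had an Fgd5 UMI. The level thus goes against the label. A 3' tag outside a deleted part would check nothing, and the labels do not say which part was removed. The genes of the sort were present: Itgb1, which encodes CD29, stood at 226 and 192 CPM in members of the libraries labelled Fgd5-ko and WT, and Cd24a at 198 and 311 CPM.

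Because prolactin acts on milk genes through STAT5, the promoters of the milk genes whose levels differ most below are shown with the letters of a STAT5-type element, TTCNNNGAA, in capitals where they occur. The motif reads the same on both strands. Of the 14 genes of the milk protein list 11 had a RefSeq window (build GRCm38.p6, 250 bases before to 50 after the start), and 4 held the motif: Csn1s1, Csn2, Glycam1 and Csn1s2a. Of all 32851 windows 2726 held it, or 8.3%. The 160 bases before each start follow, 5′ to 3′.
Csn1s1, chr5:87666048-87666207, plus strand: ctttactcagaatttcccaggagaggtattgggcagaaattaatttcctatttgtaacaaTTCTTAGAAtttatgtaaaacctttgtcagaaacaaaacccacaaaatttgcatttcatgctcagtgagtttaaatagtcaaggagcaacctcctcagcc
Csn2, chr5:87699426-87699585, minus strand: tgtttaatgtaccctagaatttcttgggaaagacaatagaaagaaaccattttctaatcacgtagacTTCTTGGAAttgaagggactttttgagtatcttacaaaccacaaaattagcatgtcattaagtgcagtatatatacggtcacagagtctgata
Glycam1, chr15:103565082-103565241, minus strand: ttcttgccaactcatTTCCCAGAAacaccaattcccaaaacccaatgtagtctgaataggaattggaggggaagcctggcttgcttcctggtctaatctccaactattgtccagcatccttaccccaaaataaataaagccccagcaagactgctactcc
Lalba, chr15:98482684-98482843, minus strand: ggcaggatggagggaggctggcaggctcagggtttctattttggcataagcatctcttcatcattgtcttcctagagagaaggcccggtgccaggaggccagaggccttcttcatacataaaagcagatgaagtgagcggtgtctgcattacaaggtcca
The match begins 100 bases before the start in Csn1s1, 93 before it in Csn2 and 145 before it in Glycam1. Lalba had no match in its window. A match is a description of letters, and the files hold no binding data.

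Members differed from basal cells by the secretory and defence products of the luminal lineage. Basal cells were those with at least 5 UMIs of Krt5 and Krt14, more of these than of Krt8 and Krt18, and at least 5 Acta2 UMIs: 6385 cells in the library labelled Fgd5-ko and 6181 in the WT library. Among the 2516 genes whose mean reached 50 CPM, 133 (5.29%) were at least 2-fold higher in members than in basal cells in both libraries and 190 (7.55%) at least 2-fold lower. In the library labelled Fgd5-ko alone 154 (6.12%) were higher and 217 (8.62%) lower, and in the WT library alone 217 (8.62%) were higher and 302 (12%) lower. Since both classes were cut from the same counts, these ratios describe the classes and support nothing further.

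The gene with the largest interval bound in both libraries was Ltf, which encodes the iron-binding milk protein lactoferrin. It stood at 844 CPM in members and 0.158 CPM in basal cells of the library labelled Fgd5-ko, a log2 ratio of 12.39, and at 896 and 0.937 CPM in the WT library, a log2 ratio of 9.90. Wfdc18 stood at 2533 CPM in members and 9.86 CPM in basal cells of the library labelled Fgd5-ko and at 12417 and 26.9 CPM in WT cells, so the members were higher in both. Fcgbp, whose product binds IgG in mucus, had log2 ratios of 8.58 in the library labelled Fgd5-ko and 9.10 in the WT library. Cd14, the lipopolysaccharide co-receptor, had 6.97 and 7.18.

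Transport and barrier genes were among the same 15. Slc28a3, a nucleoside transporter, had log2 ratios of members over basal cells of 9.32 and 9.33 in the libraries labelled Fgd5-ko and WT, and the water channel gene Aqp5 had 9.68 and 8.11. Atp6v1b1, a subunit of the proton pump, had 7.89 and 8.16. The claudin genes Cldn3 and Cldn7, which seal tight junctions, had 6.39 and 6.47 in the library labelled Fgd5-ko and 6.16 and 6.2 in the WT library. Ehf, an epithelial ETS factor like Elf5, stood at 295 CPM in members and 1.72 CPM in basal cells of the library labelled Fgd5-ko and at 284 and 1.64 CPM in WT cells, nearly the same levels. Plet1, a surface protein of luminal progenitors, had 6.15 and 6.89. Smim22, Cytip and the phospholipase gene Plb1 had log2 ratios between 6.45 and 7.97.

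The lowest 10 held 3 contractile genes, 4 genes of matrix and mesenchyme, 2 keratins and a protease inhibitor. Slpi, a protease inhibitor, stood at 85.4 CPM in members and 1329 CPM in basal cells of the library labelled Fgd5-ko and at 66.3 and 2153 CPM in WT cells. Krt17 and Krt15, keratins of stratified and basal epithelium, had log2 ratios of -3.21 and -4.99 in the library labelled Fgd5-ko and -4.29 and -3.74 in the WT library. The contractile genes Tagln, Tpm2 and Mylk lay between -2.95 and -2.78 in the library labelled Fgd5-ko and between -3.84 and -3.48 in the WT library. Lgals1, Postn, Vim and Bgn, genes of matrix and mesenchyme, lay between -4.70 and -2.86 over both libraries. The smaller distance of the contractile genes in the library labelled Fgd5-ko goes with the 9 of 22 members that carried basal UMIs there, against 10 of 99, and the part of these cells in it was not tested.

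**Figure D1:**
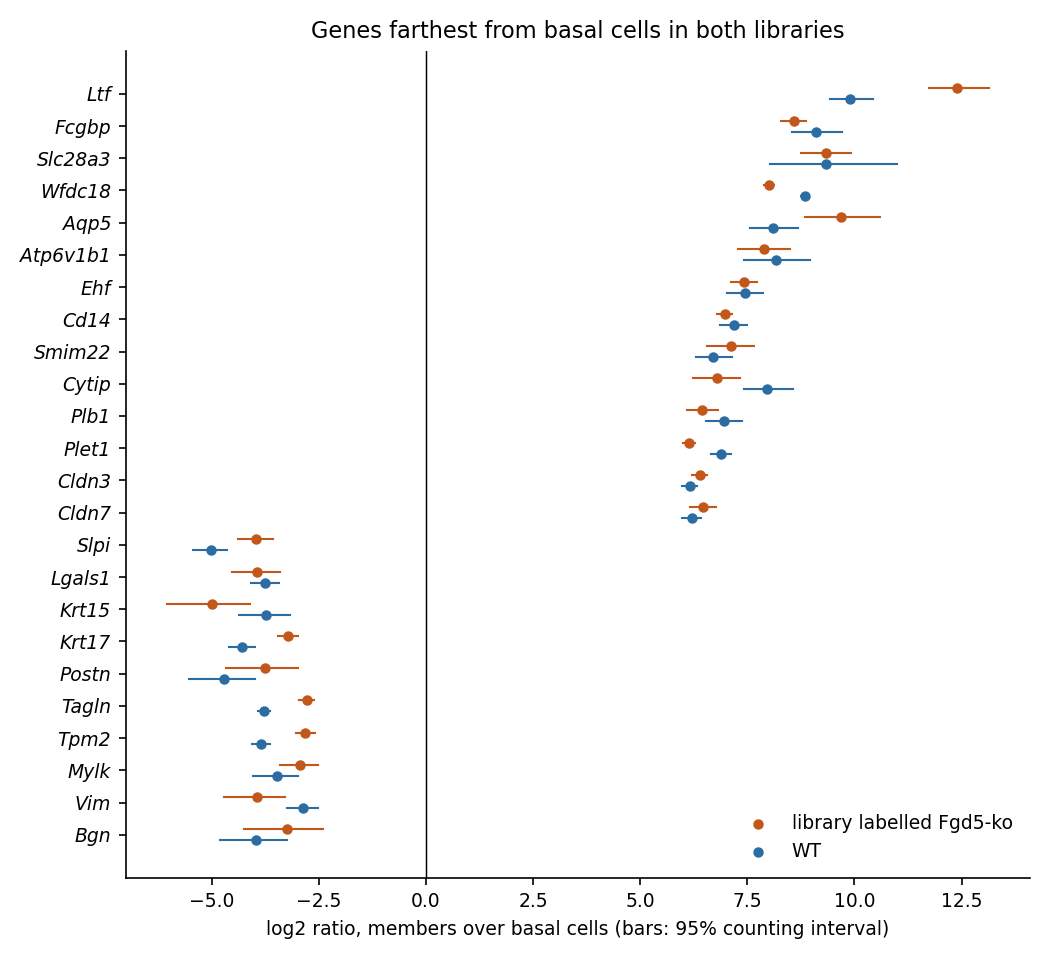
The log2 ratio of summed levels in members over basal cells is plotted for 14 of the 15 genes highest and for the 10 genes lowest in both libraries, orange for the library labelled Fgd5-ko and blue for the WT library, with bars for the 95% counting interval. Ltf lies farthest right at 12.39 and 9.90, and the 10 lowest genes lie left of 0 in both libraries.

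By lists, the milk genes and the tight junction set stood apart most from basal cells. Of 9 milk protein genes with at least 20 UMIs in members, 8 were at least 1.5-fold higher than in basal cells of the library labelled Fgd5-ko and 7 in the WT library, against 19.2% and 28.2% of all 6665 genes at that depth. Csn3 is 1 of the milk genes counted and chose the cells, so its direction was fixed by the rule. The minimum of 20 UMIs was also counted in members only. The median log2 ratios of the milk genes were 8.27 and 6.06, against 0.03 and 0.19 over all 6665 genes. Glycam1 was the exception. This mucin-like milk protein gene was lower in members, at 20.1 CPM against 121 CPM in basal cells of the library labelled Fgd5-ko and at 106 against 1817 CPM in WT cells. Among cells in the authors' table its log2 ratios were 0.27 and 0.0533, so this direction depends on cells outside it. Of 13 tight junction genes 11 and 12 were at least 1.5-fold higher, with medians of 4.53 and 4.74, and Tjp3, a scaffold of these junctions, had 6.93 and 7.01. The 12 progenitor receptor and surface genes, with Kit of the rule among them, had medians of 2.83 and 2.95. The 21 luminal transcription factors, with Elf5 of the rule among them, had 0.71 and 0.90. Within that last list Foxi1, a forkhead factor of ion-transporting epithelia, reached 7.66 and 9.52, whereas Gata3, a known regulator of luminal cells, had 0.71 and 0.78. Foxi1 was found in only 4 of 22 members of the library labelled Fgd5-ko, and 3 cells held 90% of its UMIs there.

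Hormone-sensing luminal cells are the other luminal class, and set against them the members had little or no Areg, Upk3a, Fam25c and Gipc2 and more Lcn2, Cck and Cst3. These cells were chosen by the mirrored rule, 10 in the library labelled Fgd5-ko and 112 in the WT library. Of 2575 genes 138 (5.36%) were at least 2-fold higher in members in both libraries and 162 (6.29%) at least 2-fold lower. Areg, the EGF-family ligand that hormone-sensing cells release, gave 0 UMIs in members and 341 in the 10 hormone-sensing cells of the library labelled Fgd5-ko, at least 217-fold lower against a floor of 3 UMIs over the class. In the WT library it stood at 3.69 CPM in members and 2700.1 CPM in hormone-sensing cells. Upk3a, a uroplakin gene, had 0 UMIs in members of the library labelled Fgd5-ko, at least 108-fold lower, and a log2 ratio of -7.87 in the WT library. Fam25c was at least 64.2-fold lower and at -8.21, and the transcript AW112010 at -8.01 and -7.33. Gipc2 had 0 UMIs in the members of both libraries, at least 59.8-fold and 107-fold lower. Wfdc2, a whey acidic protein relative of Wfdc18, had log2 ratios of -6.34 and -6.87, in the direction opposite to Wfdc18 at 2.97 and 5.82.

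Higher in members than in hormone-sensing cells were Cst3, a secreted inhibitor of cysteine proteases, at log2 ratios of 4.02 and 3.72, and Lcn2, the siderophore-binding lipocalin, at 3.26 and 4.6. All 22 members of the library labelled Fgd5-ko had Cst3 UMIs, with a median of 18. However, 1 of them held 586, or 59.1% of the sum. Cp, the copper carrier ceruloplasmin, had 4.14 and 3.55 and Cck, the cholecystokinin precursor, 5.70 and 6.07. Fcgbp had 4.36 and 6.49, and C2cd4b 4.74 and 5.34. The 10 hormone-sensing cells of the library labelled Fgd5-ko also held 69 UMIs of Ltf, against 1 UMI in the 112 WT cells, so Ltf separated the classes by a log2 ratio of 1.94 there and 10.66 in the WT library.

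Single members differed widely in what they made. Wfdc18 was found in 17 of 22 members of the library labelled Fgd5-ko, with 0 to 368 UMIs and a median of 20, and in 99 of 99 WT members, with 2 to 493 and a median of 69. Per 10000 UMIs of the cell the medians were 12.4 and 110. Csn3, the kappa-casein that keeps milk micelles stable and one of the genes that chose the cells, ranged from 2 to 264 UMIs with a median of 47.5 in the library labelled Fgd5-ko and from 0 to 174 with a median of 7 in the WT library. The ranges of both genes overlap between the libraries. Lcn2 was found in every member of both, at a median of 56.1 and 38.1 per 10000 UMIs.

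Lactoferrin came from a minority of the cells. Ltf had at least 10 UMIs in 3 of 22 members of the library labelled Fgd5-ko, and those 3 cells held 99% of its 504 UMIs, while 16 had none. In the WT library 26 of 99 members had at least 10 UMIs and 51 had none. The 26 WT members with at least 10 Ltf UMIs had a median of 209 Wfdc18 UMIs per 10000, against 76.4 in the 51 without Ltf, and a median of 8.99 Csn3 UMIs per 10000 against 16.7. Fcgbp was found in 24 of the 26 and in 20 of the 51. These are levels in cells of 1 library that share its depth and free RNA, and they are given as a description.

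**Figure D2:**
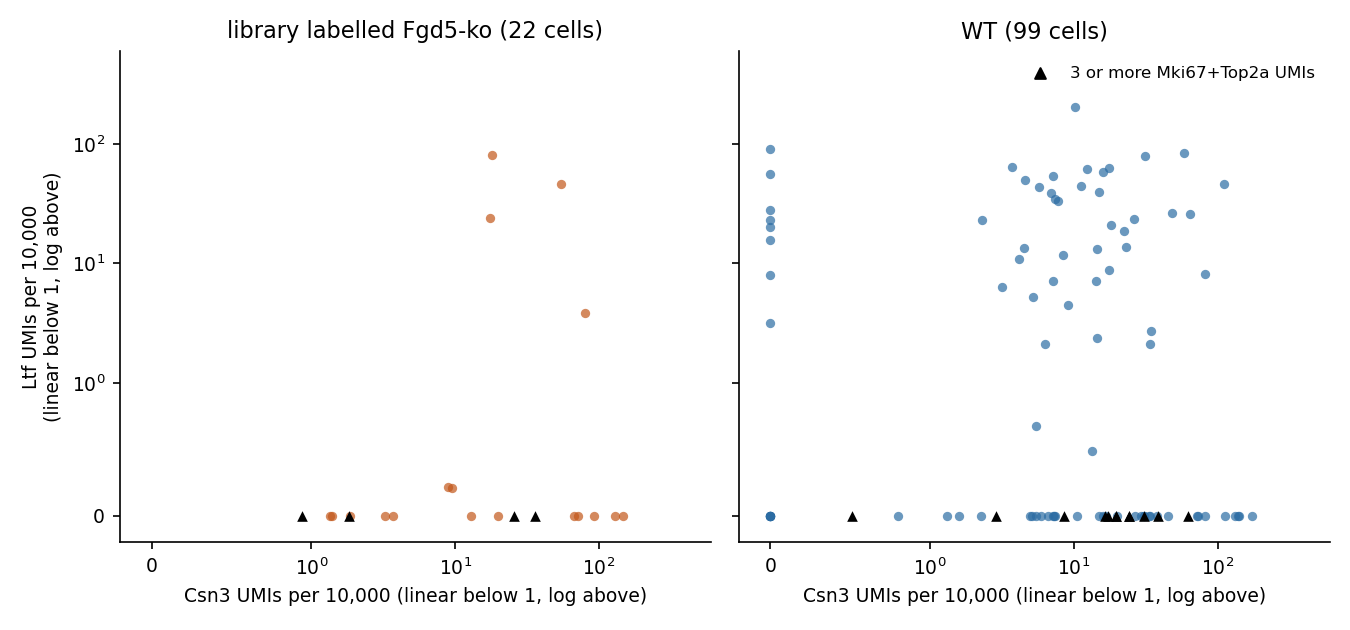
Each point is a member, with its Csn3 UMIs per 10000 UMIs on the x axis and its Ltf UMIs per 10000 on the y axis (both linear below 1 and logarithmic above), the library labelled Fgd5-ko on the left and WT on the right, and black triangles for cells with at least 3 UMIs of Mki67 and Top2a. Cells without Ltf line the x axis in both panels, and all triangles lie there.

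The milk end of the range was reached by few cells. Lalba, the lactose synthase regulator alpha-lactalbumin, was found in 9 of 22 members of the library labelled Fgd5-ko, with up to 36 UMIs, and in 4 of 99 WT members, with up to 6. Those 9 and 4 cells had a median of 54.5 and 45.9 Csn3 UMIs per 10000, against 17.7 and 12.3 over all members. Csn1s1 and Csn2, the alpha-S1 and beta caseins, had at least 10 UMIs in 4 members of the library labelled Fgd5-ko and in 0 WT members. Wap, the whey acidic protein, was at 0 in both libraries and so was not detected in 22 and in 99 cells. Btn1a1, the butyrophilin of the milk fat globule, was found in 13 of 22 and 32 of 99 members. These counts of cells are at full depth, and members of the library labelled Fgd5-ko were deeper, so they are not compared. After the thinning used for Fgd5 above, 9.09% (1.12 to 29.2) and 6.06% (2.26 to 12.7) of members of the libraries labelled Fgd5-ko and WT had a Btn1a1 UMI. For Lalba the thinned shares were 13.6% (2.91 to 34.9) and 2.02% (0.246 to 7.11). The intervals overlapped for both genes.

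Members with at least 3 UMIs of the proliferation genes Mki67 and Top2a together held no lactoferrin UMI. They were 4 of 22 members of the library labelled Fgd5-ko and 12 of 99 WT members. Lack of Ltf was not particular to them, since 16 of 22 and 51 of 99 members over all had none. Those 51 WT members had a median of 7934 UMIs. Of the 4, 3 were among the cells without Elf5, Wfdc18, Cd14 and Plet1. The 12 WT cells had a median of 17096.5 UMIs, against 5824 over all WT members, and ranged from 3471 to 31911. A fixed minimum of UMIs is passed more easily by deep cells. Of the 12 none held a UMI of Ltf or Lalba, and only 4 of them were in the authors' table. Below the limit of 3, a WT member with 1 Top2a UMI held 5 Ltf UMIs. After thinning every cell to 1000 UMIs, 13.6% of the 22 members (2.91 to 34.9) and 5.05% of the 99 (1.66 to 11.4) had a Mki67 or Top2a UMI, against 22.7% and 16.2% before thinning. Without cells that held basal UMIs the thinned shares were 0 of 13 cells and 3.37%. A count of 0 in 13 cells allows a share of up to 23.1% by 3 counts of the total and up to 24.7% by the Clopper-Pearson interval. Basal cells had 11.5% and 0.5%.

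**Figure D3:**
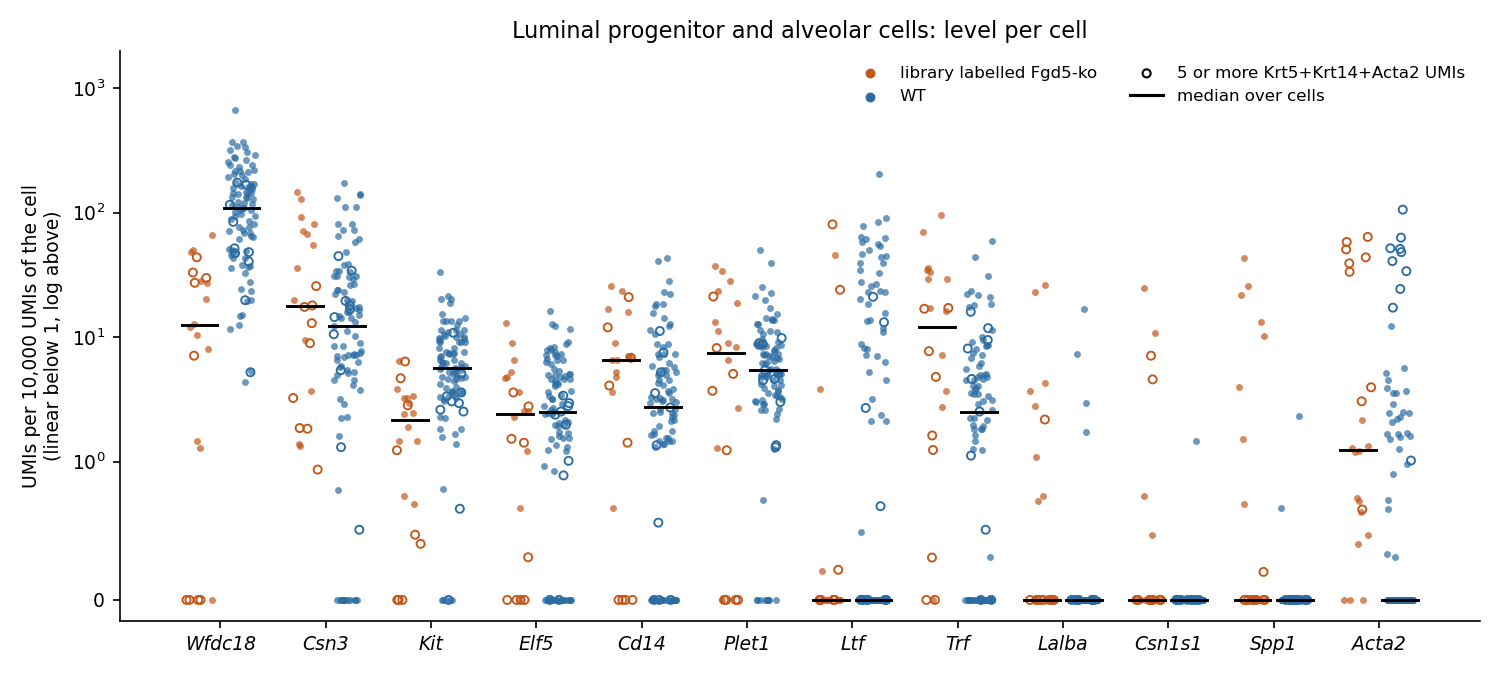
UMIs per 10000 UMIs of each member are plotted for 12 genes (linear below 1, logarithmic above), orange for the 22 members of the library labelled Fgd5-ko and blue for the 99 WT members, with a bar for the median and hollow points for cells with at least 5 UMIs of Krt5, Krt14 and Acta2. Wfdc18 lies lower and Trf higher in the library labelled Fgd5-ko, with medians of 12.4 against 110 for Wfdc18 and 12 against 2.52 for Trf, and the ranges overlap.

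Leiden clustering of the 121 members gave 4 clusters, which are numbered and described by leading genes only. Cluster 1 held 1 cell of the library labelled Fgd5-ko and 64 WT cells, with Gsn, S100a6 and 3110079O15Rik in the lead and Ltf at 1880 CPM. Cluster 2 held 14 and 13 cells, led by Lalba, Lgals3, Hilpda and Spp1. Cluster 3 held 1 and 14 cells, led by Rbp7, Birc5 and Hist1h2ap, with Ltf at 0, and only 6 of its 15 cells were in the authors' table. Cluster 4 held 6 and 8 cells, led by Il17b, Col4a1 and Acta2, and none of its cells was without basal UMIs. The median UMIs per cell of clusters 1 to 4 were 4738, 13632, 16299 and 15982.5. The first cluster is nearly all from the WT library and the least deep. Library, depth and state therefore cannot be told apart there, and the sizes are not compared.

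Between the libraries, members of the library labelled Fgd5-ko had less Wfdc18 and more of the caseins Csn1s1 and Csn2, alpha-lactalbumin and transferrin than WT members. Among the 2558 genes whose mean reached 50 CPM, 215 (8.41%) were at least 2-fold higher and 131 (5.12%) at least 2-fold lower in the library labelled Fgd5-ko. Without basal UMIs the counts were 159 (6.22%) and 261 (10.2%). The median log2 ratio of these genes was 0.00, and -0.12 without basal UMIs. Each ratio below has the library labelled Fgd5-ko on top.

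Wfdc18 and the caseins Csn1s1 and Csn2 lay in opposite directions. In the library labelled Fgd5-ko Wfdc18 stood at 2533 CPM (2407 to 2664), against 12417 CPM (12176 to 12661) in the WT library, a log2 ratio of -2.29 (-2.37 to -2.22), with -2.05 without basal UMIs and -1.45 in basal cells. In the library labelled Fgd5-ko Csn1s1 gave 174 UMIs in 6 cells, 80 of them in 1 cell, against 2 UMIs in 1 WT cell, a log2 ratio of 6.89 (5.02 to 9.95). Csn2 gave 95 UMIs in 5 cells, 64 of them in 1 cell, and 0 in the 99 WT cells, at least 43.2-fold higher against a floor of 3 UMIs over the class. Both casein genes were also found in basal cells of the library labelled Fgd5-ko, with 40 and 43 UMIs among 6385 cells, and had 0 UMIs in WT basal cells.

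Lalba had a log2 ratio of 2.90 (2.14 to 3.74) in members and 1.81 in basal cells. Csn3, which chose the cells, stood at 2611 CPM in the library labelled Fgd5-ko and 2316 CPM in the WT library, a log2 ratio of 0.17 that was 0.82 without basal UMIs. Glycam1 stood at 20.1 and 106 CPM, a ratio of -2.39, and lay at -3.91 in basal cells. It was far more abundant in basal cells, a direction that depends on cells outside the authors' table. Mfge8, the lactadherin of the milk fat globule, had -0.18, Muc1 -0.82 and Btn1a1 0.40, and without basal UMIs -0.44, -0.90 and 0.95. Of the 9 milk genes measured, 3 were at least 1.5-fold higher and 3 at least 1.5-fold lower, against 21.4% and 16.1% of all 6665 genes. The list thus had no common direction over all members. Its median was 0.17, against 0.06 over these genes. Without basal UMIs 5 were higher and 3 lower, against 16.7% and 28.5%, and the median was 0.82 against -0.13. Both medians are values of Csn3, which chose the cells, so they are a description only.

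Of the iron-binding and defence genes, Trf, which encodes transferrin, stood at 1355 CPM in the library labelled Fgd5-ko and 581 CPM in the WT library, a log2 ratio of 1.22 (1.06 to 1.39) that was 1.95 without basal UMIs and -0.37 in basal cells. Thinned to 1000 UMIs, 59.1% of members (36.4 to 79.3) and 30.3% (21.5 to 40.4) had a Trf UMI, against 8.75% and 13.5% of basal cells. Ltf had a similar sum, at 844 and 896 CPM, but came from fewer cells of the library labelled Fgd5-ko, with thinned shares of 9.09% (1.12 to 29.2) and 36.4% (26.9 to 46.6). Its log2 ratio of -0.09 was -1.10 without basal UMIs, since 2 of its 3 high cells held basal UMIs. Lcn2 differed little, at 5079 and 4942 CPM.

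The progenitor genes, most of which chose the cells, are given as a description. Kit stood at 251 CPM in the library labelled Fgd5-ko and 572 CPM in the WT library, a log2 ratio of -1.19 (-1.46 to -0.92), and Aldh1a3, the retinaldehyde dehydrogenase of luminal progenitors, at 73.7 and 222 CPM, a ratio of -1.59. Without basal UMIs the ratios of Kit and Aldh1a3 were -1.11 and -2.84. Of the 44 Aldh1a3 UMIs in the library labelled Fgd5-ko 26 came from 1 cell. Elf5 stood at 266 and 327 CPM. Of the progenitor surface genes outside the rule, Cd14 stood at 690 and 441 CPM, a log2 ratio of 0.65 (0.44 to 0.85), and Plet1 at 1015 and 663 CPM, a ratio of 0.61 (0.44 to 0.78). In basal cells the ratios of Cd14 and Plet1 were 0.86 and 1.36. Of the 12 progenitor receptor and surface genes measured 3 were at least 1.5-fold higher and 3 at least 1.5-fold lower, with a median of -0.26.

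Further genes higher in the library labelled Fgd5-ko were Spp1, which encodes osteopontin, Rspo1, a secreted amplifier of Wnt signalling, and the class I antigen H2-Q7. Spp1 stood at 255 CPM in 9 of 22 members of the library labelled Fgd5-ko and 8.60 CPM in 2 of 99 WT members, a log2 ratio of 4.89 (3.81 to 6.23) that was 5.72 without basal UMIs and 3.37 in basal cells. Rspo1 gave 86 UMIs in 9 cells and 1 UMI in 1 cell, a ratio of 6.87 (4.36 to 12.19) with 1.96 in basal cells. H2-Q7 had 5.66 in members and 3.27 in basal cells, and C530043A13Rik 4.82 in members and -0.53 in basal cells. Rrad, a small GTPase gene, gave 60 UMIs in the library labelled Fgd5-ko, 59 of them in 1 cell, and 0 in the WT library, so its bound of at least 27.3-fold rests on that cell.

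For 5 more of the higher genes the ratio was smaller without basal UMIs, and the part of basal RNA in it was not tested further. Col4a1 and Col4a2, the collagen IV chains of basement membrane, had log2 ratios of 3.92 and 4.43 in all members. Without basal UMIs Col4a1 had 0 UMIs in the library labelled Fgd5-ko, and Col4a2 had a ratio of 1.28 with an interval of -5.01 to 7.58. Odc1, ornithine decarboxylase, had 4.10 in all members and 0.82 without basal UMIs, and Ddit4, a stress-induced inhibitor of mTOR, 3.67 and 2.51. The unannotated gene 1600014C10Rik had 6.15 in all members, 2.87 without basal UMIs and 6.26 in basal cells, where it stood at 567 CPM in the library labelled Fgd5-ko and 7.39 CPM in the WT library.

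Of the genes lower in the library labelled Fgd5-ko, 3110079O15Rik stood at 8.37 CPM in that library and 907 CPM in the WT library, a log2 ratio of -6.76 (-8.39 to -5.53) that was -6.55 without basal UMIs and -2.52 in basal cells. S100a6, a calcium-binding protein gene, stood at 216 and 1397 CPM, with ratios of -2.69 in members, -3.65 without basal UMIs and -1.08 in basal cells. Gsn, which encodes the actin-severing gelsolin, had -2.60, -3.42 and -1.12. Without the highest cell of each library the ratio of Gsn in members was -2.07. The 89 WT members without basal UMIs still include 2 cells with at least 10 UMIs of the fibroblast collagen Col1a2. Rbp7, a retinoid-binding protein gene, had -4.57 in members and -0.09 in basal cells. It stood at 282 CPM in cluster 3, against 9.16 CPM in the other members. That cluster held 1 cell of the library labelled Fgd5-ko and 14 WT cells, and 6 of the 15 were in the authors' table. Slc5a7, the choline transporter gene, had -2.57 in members, 0.10 between members of 4000 to 12000 UMIs and -3.50 in basal cells, and Ndufa3, Atp5k and Gm26532 also lay lower in basal cells, at -1.71, -1.44 and -2.90.

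Beside the fibroblast markers above, the fibroblast collagens Col1a2 and Col3a1 had 1 UMI each in the library labelled Fgd5-ko and 81 and 89 UMIs in the WT library, and 63 of the 81 Col1a2 UMIs came from 1 WT cell. Without the highest cell of each library the WT count of Col1a2 was 18. Hist1h2ap, a histone gene of S phase, in the library labelled Fgd5-ko gave 32 UMIs in 2 cells, 31 of them in 1 cell, against 220 UMIs in 15 WT cells. Its log2 ratio was -2.33 in members and 1.17 in basal cells. Among members in the authors' table the ratios of Col1a2 and Hist1h2ap were 0.67 and 0.0547, so both rest on cells outside it.

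**Figure D4:**
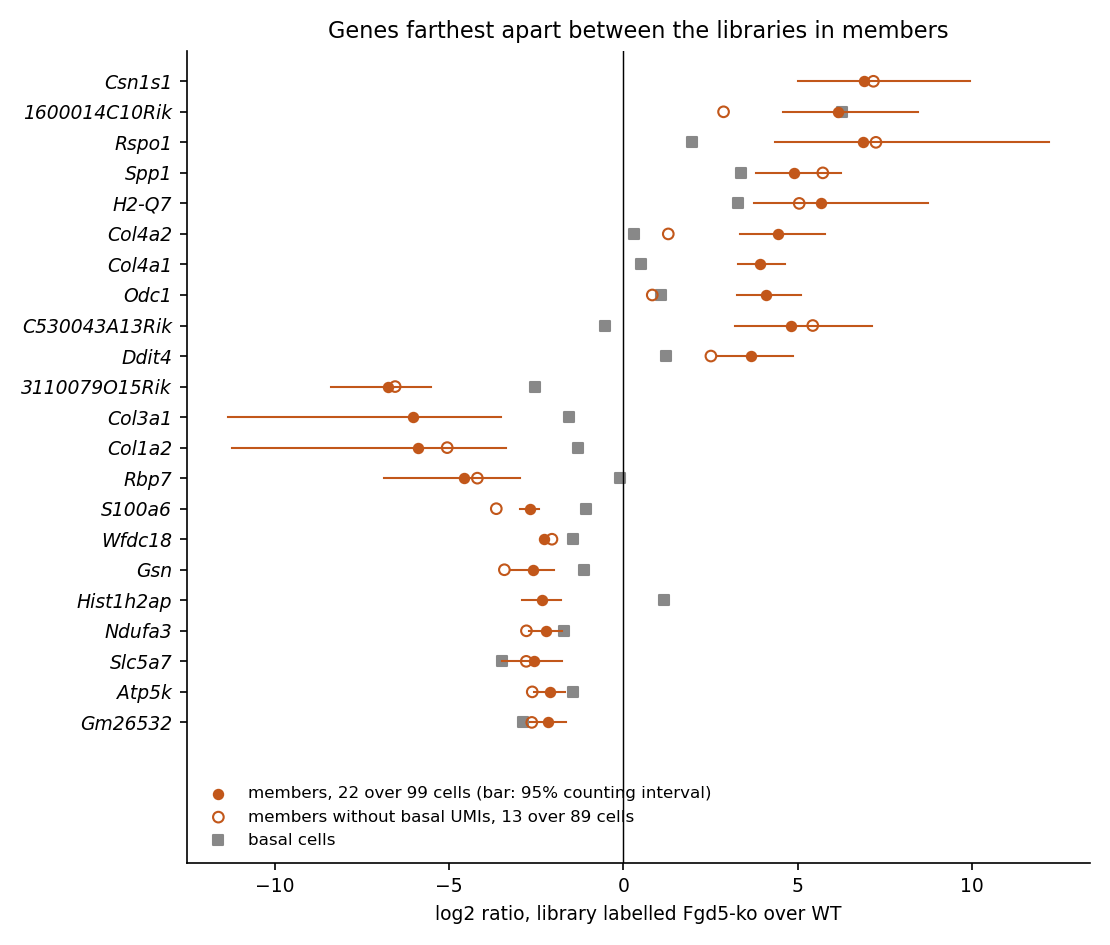
Log2 ratios, with the library labelled Fgd5-ko on top, are plotted for the genes farthest apart in members, with filled points and 95% counting intervals for all members, hollow points for members without basal UMIs and grey squares for basal cells. Csn2 and Rrad are not drawn because they had 0 UMIs in WT members, and a hollow point or square is missing where a sum was 0. Wfdc18 lies at -2.29, -2.05 and -1.45.

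Immediate early, inflammation and antigen presentation lists had more genes higher than lower in the library labelled Fgd5-ko, in members and in basal cells. Over all 6665 genes 21.4% were at least 1.5-fold higher and 16.1% lower in members, and the median was 0.06 in members, -0.13 without basal UMIs and 0.21 in basal cells. Of 18 immediate early genes 16 were at least 1.5-fold higher in members and 0 lower, with a median of 1.23, against 0.94 without basal UMIs and 0.66 in basal cells. Among them Egr2 had 2.30, the antiproliferative gene Btg2 2.0, Ier2 1.96 and Zfp36, whose product destabilises cytokine mRNAs, 1.80. Without basal UMIs these 4 had 2.06, 1.65, 1.49 and 1.60. Of 13 NF-kB and inflammation genes 11 were higher and Tnfaip2 was lower, at -1.81 and at -2.12 without basal UMIs. Icam1, an adhesion molecule, stood at 315 CPM in the library labelled Fgd5-ko and 33.2 CPM in the WT library. Its log2 ratio was 3.25 (2.66 to 3.89), with 4.63 without basal UMIs and 0.35 in basal cells. Without basal UMIs 5 of 13 members of the library labelled Fgd5-ko had Icam1 UMIs, and 1 cell held 54.1% of them. The neutrophil chemokine genes Cxcl1 and Cxcl2 had 2.25 and 2.01 in members and 1.29 and 0.51 in basal cells. Between the 4 and 52 members of 4000 to 12000 UMIs they had -1.52 and -0.90, and the median of the list was -0.0566. In the library labelled Fgd5-ko the 3 highest members held 69.0% of the Cxcl1 UMIs and 90.5% of the Cxcl2 UMIs. Csf3, the granulocyte growth factor, gave 25 UMIs in 4 cells, 14 of them in 1 cell, and 1 UMI in 1 WT cell. Of 10 antigen presentation genes 6 were higher and 0 lower, with a median of 0.87 in members and 1.22 in basal cells. B2m, the shared light chain of class I antigens, had 1.62 and 1.52.

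In the prolactin, JAK2 and STAT5 list the feedback inhibitors Socs3 and Cish stood above their WT levels. The factors Stat5a and Stat5b had log2 ratios of 0.18 and -0.08, on 15 against 18 UMIs and 9 against 13 UMIs. Socs3, a feedback inhibitor of cytokine receptors, stood at 903 CPM in the library labelled Fgd5-ko and 147 CPM in the WT library, a ratio of 2.61 with 1.81 without basal UMIs and 1.06 in basal cells, where it was more abundant than in members. Cish, a STAT5 target and inhibitor, had 2.41 in members, 2.20 without basal UMIs and 1.97 in basal cells. Socs2 of the same list had 0.35 in members. Among the 13 members of the library labelled Fgd5-ko without basal UMIs, the highest cell held 58.8% of the Cish UMIs. For Socs3 the highest cell held 46.8%. Of the 10 genes measured 4 were at least 1.5-fold higher and 0 lower, against 21.4% and 16.1% of all genes. Without basal UMIs 3 were higher and 1 lower, against 16.7% and 28.5%.

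Matrix and contractile lists were higher over all members but not without basal UMIs. Of 11 basement membrane genes 10 were at least 1.5-fold higher in members, with a median of 1.5, against 0.22 in basal cells. Without basal UMIs 3 were higher and 4 lower, and 4 of the 11 had 0 UMIs in the library labelled Fgd5-ko. With these set to the floor of 3 UMIs the median was -0.13, an upper bound that equals the median over all genes. Of 13 basal contractile genes 9 were higher, with a median of 1.16, against -0.30 without basal UMIs, where 2 genes were at 0 UMIs and set to the floor. Acta2 took part in choosing those cells. Cell cycle lists stood near 0 in members, where basal cells differed: 19 G2/M genes had medians of 0.35 in members, -0.65 without basal UMIs and 2.41 in basal cells, and 14 S phase genes -0.03, -0.77 and 1.27. Within the WT library members were above basal cells in G2/M genes by a median log2 ratio of 2.78, against 0.87 in the library labelled Fgd5-ko. In the latter 3 cells with basal UMIs held 85.8% of the Mki67 UMIs, and 1 of 13 members without basal UMIs had any. Between the libraries without basal UMIs 0 of 19 G2/M genes were at least 1.5-fold higher and 11 lower, against 16.7% and 28.5% of all genes. In the WT library 12 of 99 members had at least 3 UMIs of Mki67 and Top2a, and 4 of these 12 were in the authors' table.

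The other lists had medians between -0.45 and 0.53. These were -0.08 for 21 luminal transcription factors, -0.09 for 13 tight junction genes, -0.26 for 12 progenitor receptor and surface genes, -0.39 for 5 simple keratins, -0.40 for 7 retinoid genes and -0.45 for 7 Notch genes. Krt7, a simple keratin, was an exception at 16.7 CPM in the library labelled Fgd5-ko and 93.4 CPM in the WT library, and Cldn7 had -1.34. Without basal UMIs the ratios were -3.30 and -1.05. Crabp2, a carrier of retinoic acid, had -1.32 and the Notch target Nrarp -2.09, on 5 against 29 UMIs, and without basal UMIs the ratios were -1.18 and -1.59. The 15 genes of milk lipid, lactose and transport had a median of -0.14, with the lipid droplet gene Plin2 at 0.36 and Scd1, a fatty acid desaturase, at 0.01. Heat shock, interferon, EGF family and polarity lists had medians of 0.30, 0.18, 0.40 and 0.07, and the 4 stratified keratins 0.53. Without basal UMIs the medians were 0.07, 0.52, -0.15 and -0.22, and -0.15 for the stratified keratins, so the EGF family, polarity and stratified keratin medians changed sign. Those of the luminal transcription factors, tight junction, progenitor surface and milk lipid lists did so too, at 0.22, 0.15, 0.01 and 0.36, and the simple keratins, retinoid and Notch lists had -0.78, -0.24 and -0.04.

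**Figure D5:**
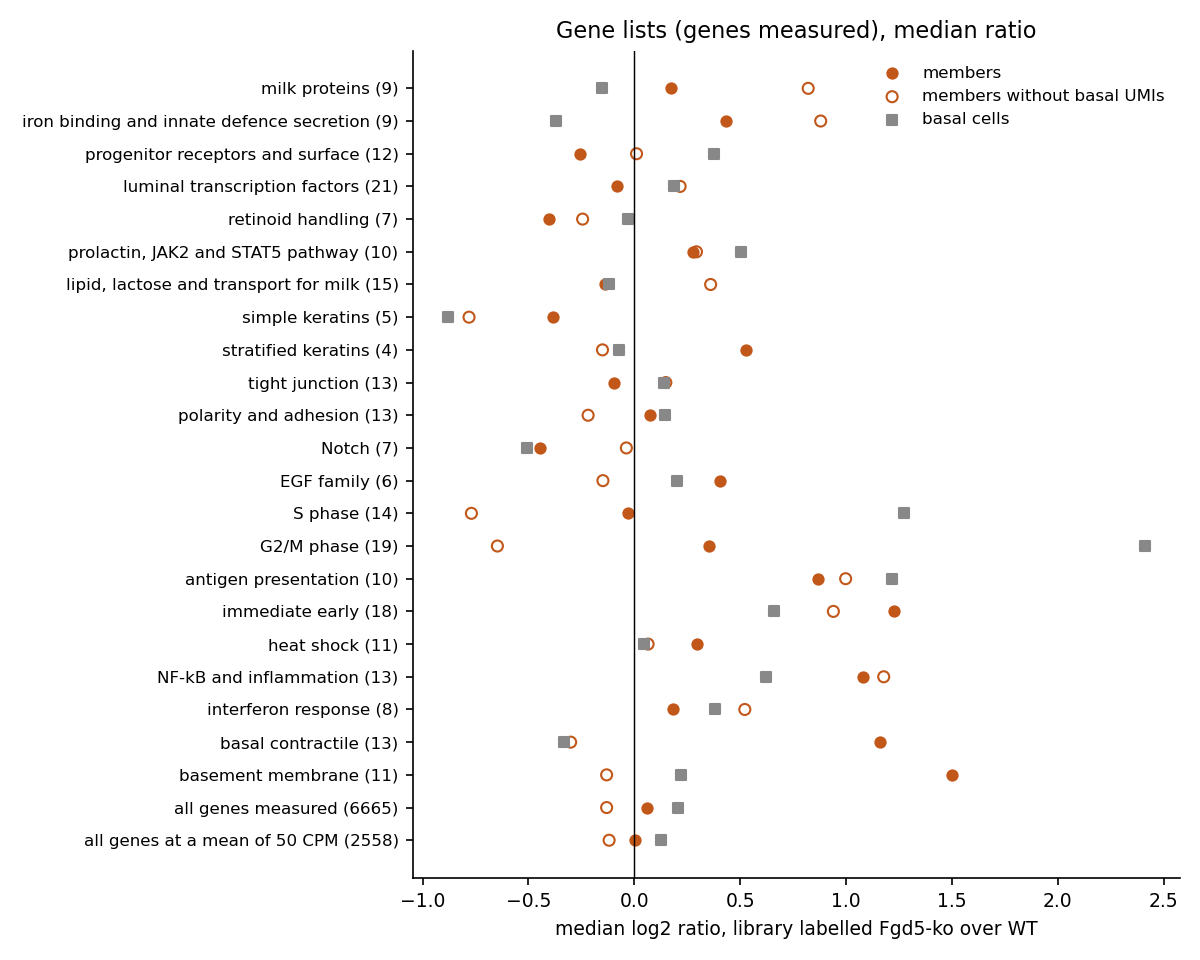
Median log2 ratios, with the library labelled Fgd5-ko on top, are plotted for each gene list, with the number of genes measured, as filled points for members, hollow points for members without basal UMIs and grey squares for basal cells. The basement membrane and contractile lists lie at 1.5 and 1.16 in members and at -0.13 (a bound) and -0.30 without basal UMIs, and the G2/M list lies at 0.35 in members and 2.41 in basal cells.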

How the data were processed

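Single-cell RNA of sorted mammary cells was sequenced with the 10x Genomics 3' kit (V3 chemistry), per the labels' protocols. The authors deposited raw UMI counts for each gene and barcode, and a Cell Ranger program of version 3.1.0 wrote them per the file headers. Cell Ranger, Seurat 3.0 and the build mm9 appear, without a role, in the submitters' processing notes. No annotation is given in the sources used here. The authors also deposited a table of cell barcodes with coordinates, used only to mark listed cells. That table holds no score or unit that was analysed.

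Summed UMIs of each class and library, scaled to 1000000, are CPM and have exact Poisson intervals. Log2 ratios have exact conditional and shares Clopper-Pearson intervals, at 95%, which cover counting error alone. A sum of 0 was set to a floor of 3 UMIs for bounds. Shares were taken after thinning cells to 1000 UMIs, which left out no member, and classes above 400 cells were represented by 400 drawn cells. The libraries held 136697801 UMIs in 8798 barcodes (labelled Fgd5-ko) and 60566053 in 10735 (WT). Genes were filtered at a mean of 50 CPM for counts at 2-fold and at 20 UMIs over both libraries for 22 gene lists at 1.5-fold. Leiden clusters used 1500 variable genes, 20 components, 15 neighbours and resolution 0.5. The sums and intervals were tested on simulated counts.

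Named genes are the 15 highest and 10 lowest over basal cells, the 6 highest and 6 lowest over hormone-sensing cells, the 12 highest and 12 lowest between libraries by the interval bound nearest 0, the milk list, up to 4 of each other list, Fgd5 and the genes of the sort. Foxi1, Gata3, Tjp3, Plin2, Scd1, Stat5a, Stat5b and the cluster leads were picked after their values were seen where the rule does not give them. A few genes the rule names are not reported here. Members and lists were chosen with earlier results of these data known. Promoters are from RefSeq. Alternatives were other limits of the rule, scalings, filters, cells of matched depth, equal weight per cell, listed cells and cells without basal UMIs. Leaving out the highest cell per gene and leaving out Scrublet calls were added after seeing the data. Python 3.11.15, SciPy 1.17.1, scanpy 1.11.5, leidenalg 0.10.2, R 4.3.3 and edgeR 4.0.16 (TMM scaling of the counts only) were used.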

Additional observations from a re-analysis of the deposited data

Results flagged for a closer look

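For 4 genes the log2 ratio between the libraries, with the one labelled Fgd5-ko on top, had opposite signs in members and in basal cells, each at least 2-fold and with a counting interval on 1 side of 0. The difference itself was not tested. Csf3 had a log2 ratio of 5.09 in members and -1.16 in basal cells. Aurkb, a kinase of mitosis, had -1.41 in members and 2.50 in basal cells. Mcm5, a replication helicase subunit, had -1.43 and 1.43. Hist1h2ap had -2.33 and 1.17. Aurkb and Mcm5 rest on 8 and 6 UMIs in members of the library labelled Fgd5-ko. Among members in the authors' table the ratios of Aurkb, Mcm5 and Hist1h2ap were 0.18, 0.25 and 0.0547, and between the quartiles of UMIs that of Aurkb was 0.83, so that these 3 no longer had opposite signs to basal cells there.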

How the results depend on the processing

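With 1 library per genotype no replicate could be left out. No paired analysis was possible because the labels give no replicate numbers and each group has 1 library. The number of members stayed between 17 and 26 in the library labelled Fgd5-ko and between 84 and 110 in the WT library under the other limits of the rule. The number of cells limits the library labelled Fgd5-ko, with 22 members against 99, and depth per cell limits the WT members, with a median of 5824 UMIs against 21181 in the library labelled Fgd5-ko.

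Counts of genes moved by more than 1.5 times as follows. With no filter beyond 20 UMIs, 548 genes were 2-fold higher than in basal cells, and 696 higher and 401 lower between the libraries. At a mean of 200 CPM these were 37 higher and 56 lower than in basal cells, and 58 and 52 between the libraries. Fewer or more genes enter under these filters. Between the libraries, genes 2-fold lower numbered 261 without basal UMIs and 424 among cells of 4000 to 12000 UMIs (4 against 52 members), and genes higher and lower numbered 374 and 227 between the quartiles of UMIs (10 against 49 members). The share of members with Mki67 or Top2a was 0 in the library labelled Fgd5-ko without basal UMIs, where 13 cells are left. Resolution 0.3 gave 2 clusters. TMM moved the ratios between the libraries by -0.06. The cause of the other changes was not tested.

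Directions reversed for the following ratios. Glycam1 over basal cells was 0.27 and 0.0533 in the libraries labelled Fgd5-ko and WT among listed members. Between the libraries without basal UMIs these were Col4a1 -0.13 (a bound, with 0 UMIs in the library labelled Fgd5-ko), Dsp -0.48, Lamb3 -0.30, Mki67 -0.27, Nrg1 -0.30 and Plk1 -0.59, and the list medians -0.30 (basal contractile) and -0.13 (basement membrane, a bound). Among listed members they were Aurkb 0.18, Col1a2 0.67, Hist1h2ap 0.0547, Mcm5 0.25 and Mcm6 0.56. At 4000 to 12000 UMIs they were Acta2 -2.39, Cxcl1 -1.52, Cxcl2 -0.90, Itga6 -0.19, Krt17 -0.93, Marveld2 0.27, Psmb9 -0.19, Slc5a7 0.10 and the NF-kB median -0.0566. Between the quartiles they were Aurkb 0.83 and Mcm6 1.09. Further ratios of single genes and list medians left their counting interval or moved by over 1.5-fold, some small ones across 0: 86 without basal UMIs, 62 among listed members, 88 at 4000 to 12000 UMIs, 93 between the quartiles, 50 with equal weight per cell and 14 without the highest member of each library.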
